A study of Mus musculus with 55 samples.

Results

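The hepatic growth hormone axis was described through 10 genes, chosen by symbol from the 37620 genes quantified in the livers of 55 male Collaborative Cross mice. Ghr encodes the growth hormone receptor and Stat5b the transcription factor that the receptor activates. Igf1 encodes the circulating insulin-like growth factor, Igfals a subunit of the serum complex that carries it, and Igfbp2 another of its binding proteins. Socs2 and Cish encode feedback inhibitors of the receptor, Bcl6 encodes a repressor that binds many of the same DNA sites as STAT5, and Hsd3b5 and Elovl3 encode enzymes that mouse liver expresses mainly in males. The Collaborative Cross is a panel of recombinant inbred lines bred from 8 founder strains, so that mice of 1 line share nearly all of their genome and lines differ from each other. The 29 lines were the groups of the study, and 8 of them gave 1 mouse, 16 gave 2 mice and 5 gave 3 mice. All mice were untreated males fed chow and kept on a light-dark cycle, with ages from 8 to 11.9 weeks and body weights from 12.8 to 38 g. The labels named no batch and no hour of dissection. PolyA RNA was sequenced from whole liver to a depth of 20542671 to 33953036 assigned fragments (read pairs) a mouse (median 27700357).

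In male mice, pituitary growth hormone reaches the liver in pulses. Each pulse lets the receptor activate JAK2 and, through it, STAT5B, which induces Igf1 and the feedback inhibitors Cish and Socs2 and maintains the male pattern of liver expression, while BCL6 is repressed. Most circulating IGF1 is made by hepatocytes and travels bound to IGFBP3 or IGFBP5 together with the IGFALS subunit. Transcripts of Cish, Socs2 and Bcl6 are known to change in the course of a pulse.

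Levels are given in FPKM, fragment counts scaled to transcript length and to library depth, and differences on the log2 scale. Values of bulk liver do not tell apart fewer cells of a type and less RNA per cell. Hepatocyte markers dominated every sample, with a summed level from 14462 to 63816 FPKM. All 10 genes passed the filter on low counts in each test.

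Some libraries stood apart from their labels or lines. IL-785 replicate 3, a mouse of 12.8 g, had 39.5 FPKM of Xist, the RNA of the inactive X chromosome, where the other 54 mice had 0 to 0.12 FPKM. Its Y-linked genes Ddx3y (12.6 FPKM) and Eif2s3y (18.9 FPKM) lay inside the range of the other mice. IL-1052 replicate 1 was closer to IL-2750 replicate 1 than to its own line mate, with a Spearman correlation over 11284 genes of 0.977 against 0.931, and IL-1052 replicate 2 was closer to IL-2750 replicate 2 (0.968). Line IL-2126, a single mouse, had the highest Igf1, Cish and Igfbp2 of the lines. Many of the results that rest on these mice, but not all, are given with and without them.

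The levels of the 10 genes spanned a wide range. Igf1 was the most abundant, at 293 ± 67.4 FPKM (SD of 29 line means), and lay above Ghr, at 195 ± 32.4 FPKM, in 29 of 29 lines. Igfbp2 followed at 205 ± 83.8 FPKM and was not separated from Ghr, which was the higher of the pair in 17 lines. Hsd3b5 averaged 129 ± 61.1 FPKM, Elovl3 106 ± 68.9 FPKM and Igfals 35.5 ± 9.73 FPKM. Igfals was above Stat5b (9.45 ± 2.32 FPKM) in 29 of 29 lines. Socs2 (7.52 ± 4.63 FPKM), Bcl6 (7.12 ± 3.95 FPKM) and Cish (6.20 ± 7.82 FPKM) had the lowest means and changed places from line to line, with Bcl6 above Socs2 in 14 lines.

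**Figure D1:**
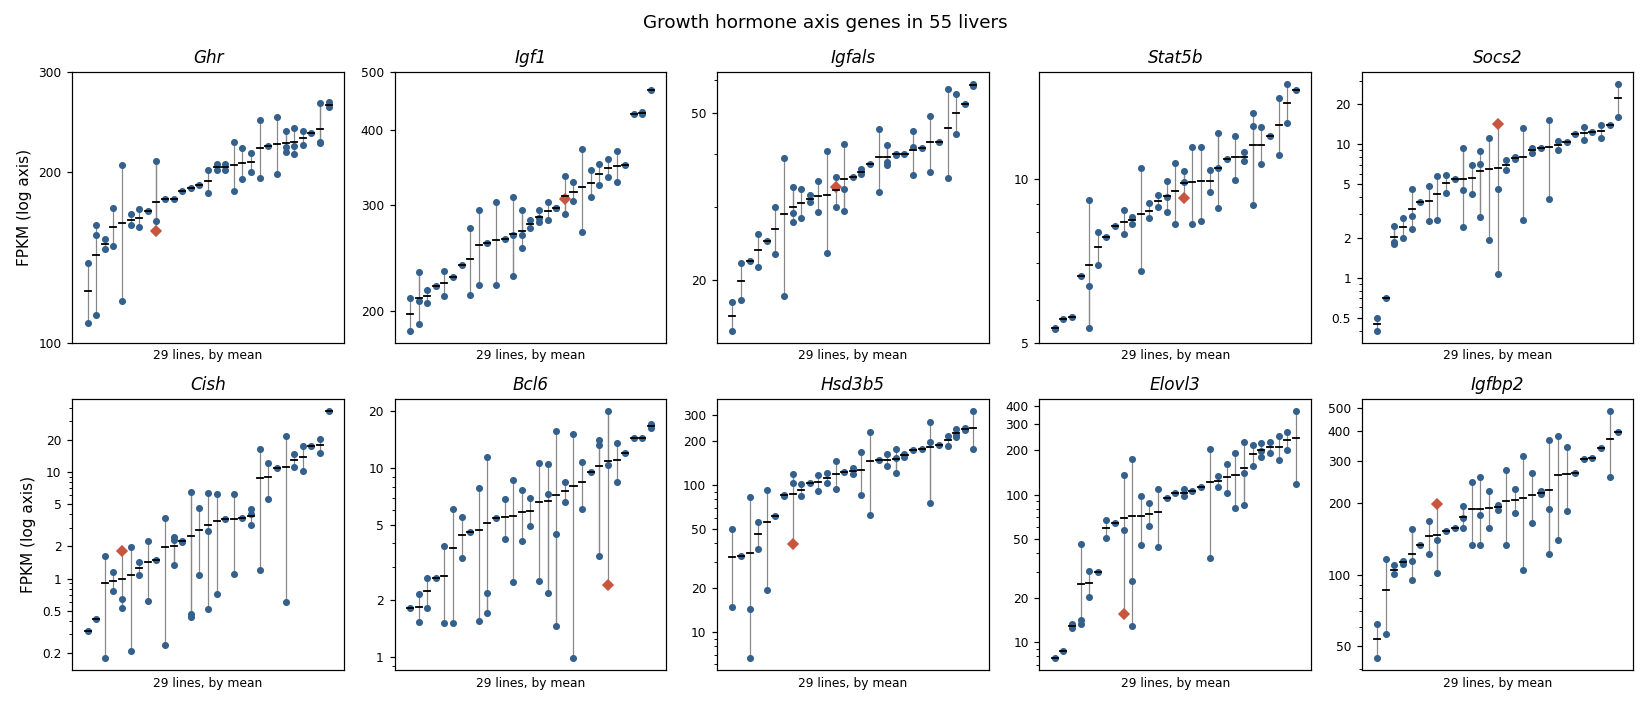
FPKM on a log axis in each of 55 livers for the 10 genes, with the 29 lines ordered by their mean from left to right, 1 point a mouse, a bar for each line mean and a red diamond for IL-785 replicate 3. Igf1, Ghr and Stat5b stay within a 3-fold band, whereas Cish ranges from 0.18 to 36.7 FPKM with line mates far apart.

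The receptor and its transcription factor varied little. In the NCBIM37 build the files used, the annotation placed Ghr (ENSMUSG00000055737) at chr15:3267760-3533492 (minus strand) and Stat5b (ENSMUSG00000020919) at chr11:100642045-100712038 (minus strand). Ghr ranged from 108 FPKM in IL-2011 replicate 1 over a median of 200 to 265 FPKM in IL-3348 replicate 1, a 2.45-fold range. IL-2011 had the lowest line mean, 123 ± 21.1 FPKM (SD, n = 2), and IL-3348 the highest, 263 ± 3.37 FPKM (SD, n = 2). Stat5b ranged from 5.31 FPKM in IL-4457 replicate 1 over 9.25 to 14.9 FPKM in IL-72 replicate 1, and its lowest line, IL-4457, had 5.33 ± 0.021 FPKM (SD, n = 2). No pair of line mates differed by more than 2-fold in either gene. In an edgeR quasi-likelihood test of line over the 21 lines with 2 or more mice, 9 of the 10 genes differed among lines at an adjusted p under 0.05, beside 88.5% of all 15285 genes tested. Ghr passed at an adjusted p of 0.000259 and Stat5b at 0.000612.

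Transcripts of the secreted proteins also differed among lines. The same annotation placed Igf1 (ENSMUSG00000020053) at chr10:87321010-87399792 (plus strand), Igfals (ENSMUSG00000046070) at chr17:25014600-25018955 (plus strand) and Igfbp2 (ENSMUSG00000039323) at chr1:72871077-72899048 (plus strand). Igf1 ranged from 185 FPKM in IL-1061 replicate 1 over a median of 286 to 466 FPKM in IL-2126, and differed among lines at an adjusted edgeR p of 3.9e-05. Among lines with 2 or more mice the highest was IL-4457, at 427 ± 1.73 FPKM (SD, n = 2), and the lowest IL-1061, at 197 ± 17.6 FPKM (SD, n = 2). Igfals ranged from 15.2 FPKM in IL-1513 replicate 1 over 35.2 to 58.7 FPKM in IL-2146 replicate 2. The 2 mice of IL-1513 (16.5 ± 1.87 FPKM) and those of IL-2146 (58.4 ± 0.41 FPKM) were the extremes of the lines and did not overlap. Igfbp2 was broader, from 44.6 FPKM in IL-219 replicate 1 over 172 to 484 FPKM in IL-4052 replicate 2, and line mates differed by more than 2-fold in 5 of 21 lines. Igfals (adjusted p 3.0e-05) and Igfbp2 (0.0103) passed the same test of line.

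Cish and Bcl6 varied most between line mates, with an SD within lines of 1.05 and 1.00 on the log2 scale, beside 0.73 for Socs2. Their positions were Socs2 (ENSMUSG00000020027) at chr10:94847996-94879814 (minus strand), Cish (ENSMUSG00000032578) at chr9:107198357-107205115 (plus strand) and Bcl6 (ENSMUSG00000022508) at chr16:23965138-23988938 (minus strand). Socs2 ran from 0.40 FPKM in IL-1061 replicate 2 over a median of 5.89 to 28.2 FPKM in IL-3912 replicate 2, a 70.6-fold range. IL-1061 was low in both mice, at 0.45 ± 0.071 FPKM (SD, n = 2), and IL-3912 was the highest line, at 22.1 ± 8.71 FPKM (SD, n = 2). Cish ran from 0.18 FPKM in IL-3348 replicate 2 over 2.27 to 36.7 FPKM in IL-2126, a 204-fold range. The 2 mice of IL-4052 had 0.60 and 21.6 FPKM of Cish, the largest ratio between line mates for any of the 10 genes. Line mates differed in Cish by more than 2-fold in 13 of 21 lines. Bcl6 ran from 0.99 FPKM in IL-1061 replicate 1 over 6.06 to 19.99 FPKM in IL-785 replicate 2, and both mice of IL-1061 were near its ends, at 0.99 and 15.1 FPKM. Socs2 (adjusted edgeR p 0.00412) and Cish (0.0145) still differed among lines. For Bcl6 a difference was not detected (adjusted edgeR p 0.477, 0.230 to 0.625 with 1 mouse left out), and it was the gene of the 10 that did not pass.

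The male-biased enzymes were broad both between and within lines. The files' build has Hsd3b5 (ENSMUSG00000038092) at chr3:98422559-98434232 (minus strand) and Elovl3 (ENSMUSG00000038754) at chr19:46206387-46210184 (plus strand). Hsd3b5, which reduces steroids, ranged from 6.63 FPKM in IL-2156 replicate 3 over a median of 121 to 317 FPKM in IL-2146 replicate 2. Elovl3, which elongates fatty acids, ranged from 7.77 FPKM in IL-1452 over 102 to 367 FPKM in IL-3438 replicate 1. The lowest line with 2 or more mice in Hsd3b5 was IL-219, at 32.4 ± 25.0 FPKM (SD, n = 2), and the highest line was IL-2146, at 246 ± 100 FPKM. IL-2156 held the widest spread of line mates for both genes, with 82.5, 14.4 and 6.63 FPKM of Hsd3b5 beside 175, 26.0 and 12.9 FPKM of Elovl3 in replicates 1, 2 and 3. Hsd3b5 (adjusted edgeR p 0.0173) and Elovl3 (0.00563) differed among lines. Hsd3b5 has close paralogs of the same family, and reads shared with them could be divided among them by the estimation of counts.

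The intraclass correlation, the share of the variance of rank scores that lies between lines, put the same facts on 1 scale. It was 0.724 for Igf1, 0.642 for Ghr, 0.616 for Stat5b and 0.613 for Igfals. It was 0.549 for Hsd3b5, 0.535 for Elovl3, 0.437 for Socs2, 0.359 for Igfbp2, 0.207 for Cish and -0.080 for Bcl6. The median over the 10 genes, 0.542, was near the median of 0.555 over 11284 genes. Igf1 was above 85.0% of those genes, while Cish was above 5.52% and Bcl6 above 0.877%. The value for Hsd3b5 rose to 0.771 without IL-1052 and IL-2750, whose mice labelled IL-1052 had 230 and 62.8 FPKM, and that for Socs2 rose to 0.566 without IL-785 replicate 3. For Cish it was 0.362 without IL-4052 replicate 1, 0.333 without IL-4052 replicate 2 and 0.389 from log2(FPKM + 1) without scores, and for Bcl6 0.137 without IL-1061 replicate 2. Leaving out IL-785 replicate 3 changed no call of the test among lines.

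The shares of transcript isoforms also varied. Of 20 isoforms of 7 of these genes that were tested, 13 differed in their share among lines (limma on rank scores, adjusted p under 0.05), beside 28.1% of 21415 isoforms. The 13 belonged to Ghr, Igf1, Igfals, Igfbp2 and Stat5b. Isoform shares of a gene add up to the whole, so calls within a gene are not independent. Ghr was split between the full-length receptor and the short form, which in rodents is the secreted growth hormone binding protein. The coding sequence was 1950 bases for the full-length transcript and 891 for the short one. The 2 forms part after a shared exon, and the exons that then follow are printed because they decide between a membrane receptor and a secreted protein. The first ends the short form at chr15:3277607-3277686 and the second, at chr15:3275898-3275988, codes part of the membrane-spanning stretch of the full-length form (NCBIM37, minus strand).

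Ghr short form end: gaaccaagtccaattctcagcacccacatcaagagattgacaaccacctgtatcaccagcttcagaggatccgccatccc
Ghr full length next exon: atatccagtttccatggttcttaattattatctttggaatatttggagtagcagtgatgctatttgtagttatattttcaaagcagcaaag

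The full-length form (ENSMUST00000069451) held 44.4 ± 6.25% of Ghr expression (SD of 29 line means) and the short form (ENSMUST00000110698) 51.5 ± 6.25%. The full-length share ranged from 24.9% to 61.2% over mice, with IL-2146 the lowest line at 31.0% and IL-557 the highest at 61.2%. Both shares differed among lines, at adjusted limma p of 0.0191 and 0.0130. Neither form was the main one in all lines.

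For Igf1 the transcript ENSMUST00000122100, with an exon that changes the E peptide at the end of the precursor, held 45.1 ± 3.78% of expression (SD of 29 line means). ENSMUST00000121952 held 31.8 ± 3.48% and ENSMUST00000095360 16.4 ± 3.89%, both without that exon and with other first exons. These shares were far more even over lines than those of Igfbp2 or Stat5b, although all 3 passed the test of line (adjusted limma p 0.0272, 0.00819 and 0.0183). The first of these no longer passed without IL-4052 replicate 1 (0.0523) or IL-4457 replicate 2 (0.0531). The exon lies at chr10:87378043-87378094 (NCBIM37, plus strand) and is shown because its inclusion separates the first isoform from the other two.

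Igf1 extra exon: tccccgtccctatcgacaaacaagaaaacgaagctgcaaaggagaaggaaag

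The isoform shares of Igfbp2 were closely tied to line. ENSMUST00000120564, with 474 coding bases beside 915 in the main transcript, held 17.9 ± 12.0% of Igfbp2 expression (SD of 29 line means). It was estimated at 0 in both mice of IL-1061 and in IL-1141, and at 47.5% in IL-2126. Its intraclass correlation was 0.80, and the adjusted limma p of its difference among lines was 0.00247. Stat5b was divided between ENSMUST00000004143 (65.5 ± 13.2%) and ENSMUST00000107358 (33.9 ± 13%), the latter running from 1.89% in IL-2146 replicate 2 to 57.9% in IL-1513 replicate 1, with an adjusted limma p of 0.00324 among lines. Igfals held 82.4 ± 3.55% in 1 isoform. Hsd3b5 and Elovl3 had a single isoform, Bcl6 was 98.6% 1 isoform, and no isoform of Socs2 or Cish passed the test. These shares were estimated from short reads, and their depth was lowest for Cish and Socs2.

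**Figure D2:**
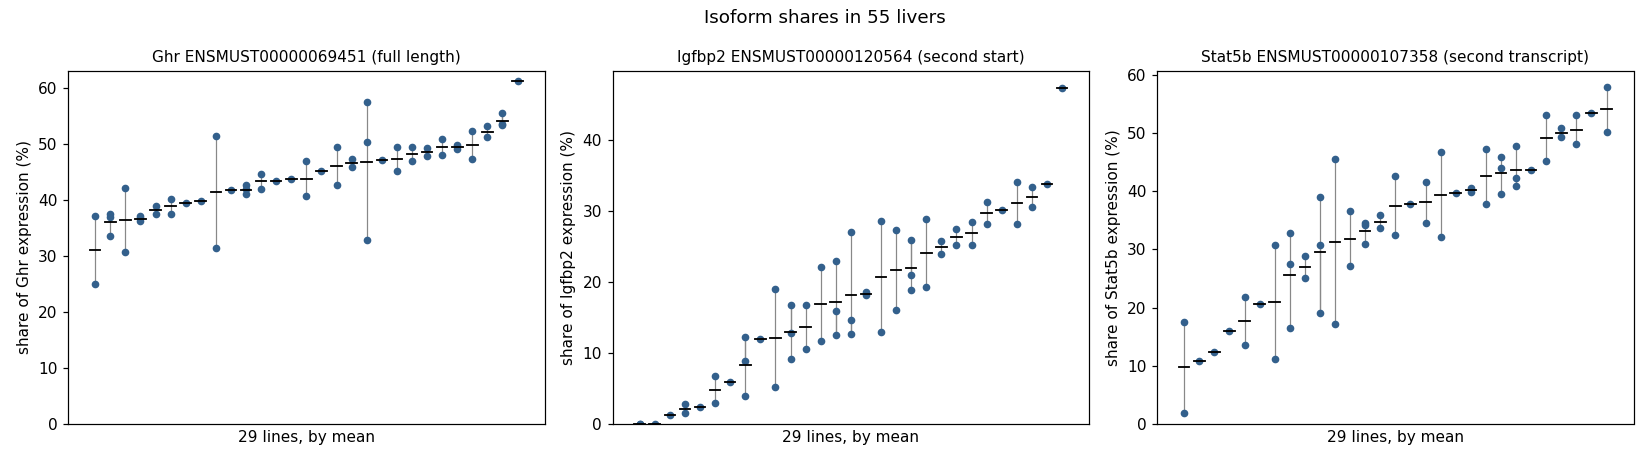
Share of a gene's expression in percent for isoforms of these genes in 55 livers, with the 29 lines ordered by their mean from left to right, 1 point a mouse and a bar for each line mean. The share of the Igfbp2 isoform with 474 coding bases runs from 0 in IL-1061 to 47.5% in IL-2126.

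The genes were then compared with each other across the 29 line means of log2(FPKM + 1). Igf1 was highest in the lines with high Socs2 and Cish and low Stat5b. IL-2126, IL-4457 and IL-4141 had the 3 highest means of Igf1, at 466, 427 and 425 FPKM, and also the 3 lowest means of Stat5b, at 5.59, 5.33 and 5.53 FPKM. Of the 45 pairs, 10 had a two-sided permutation p under 0.05. Of the pairs that these genes form with all other genes, 12.8% passed 0.05 in an unadjusted t test of r. This share thus came from another test than the count. The permutation p values given for pairs are not adjusted over the 45 pairs. The adjusted p beside them came from edgeR fits over all genes, with 1 gene of the pair as covariate.

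Igf1 and Socs2 had r = 0.64 over 29 line means (permutation p = 0.00014, Spearman rho 0.58 with permutation p = 0.00106), and 0.63 without the 2 lines farthest from the median of Igf1. Socs2 was called with Igf1 as covariate (adjusted p 0.0160, 0.0060 to 0.0343 with 1 line left out), while Igf1 was not called with Socs2 as covariate (0.123). Igf1 and Stat5b had r = -0.62 (permutation p = 0.00041, rho -0.55 with permutation p = 0.00247), and -0.46 without the 2 farthest lines. This was the pair called in both directions, at adjusted p of 0.0046 with Igf1 as covariate and 0.0484 with Stat5b. The first call held with each line left out in turn, up to 0.0329 without IL-2126, and the second was lost in 20 of 29 such fits, up to 0.140 without IL-4141, and without the Xist-positive library (0.0512).

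Igf1 and Cish had r = 0.54 (permutation p = 0.00288, rho 0.51 with permutation p = 0.00531), which fell to 0.34 without the 2 farthest lines (permutation p = 0.0835). Cish was called with Igf1 as covariate (adjusted p 0.0303), but not without IL-2126 (0.255) or without IL-4457 (0.0589). The correlation itself passed with each line left out in turn (r from 0.42 to 0.59, highest permutation p 0.0259). Socs2 and Cish, the paired feedback inhibitors, had r = 0.53 (permutation p = 0.00347, rho 0.63 with permutation p = 0.00044) and 0.48 without the 2 farthest lines, but were not called in the edgeR fits (adjusted p 0.121 and 0.274). Among lines with 2 or more mice their r was 0.41 and no longer passed (permutation p = 0.0654).

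**Figure D3:**
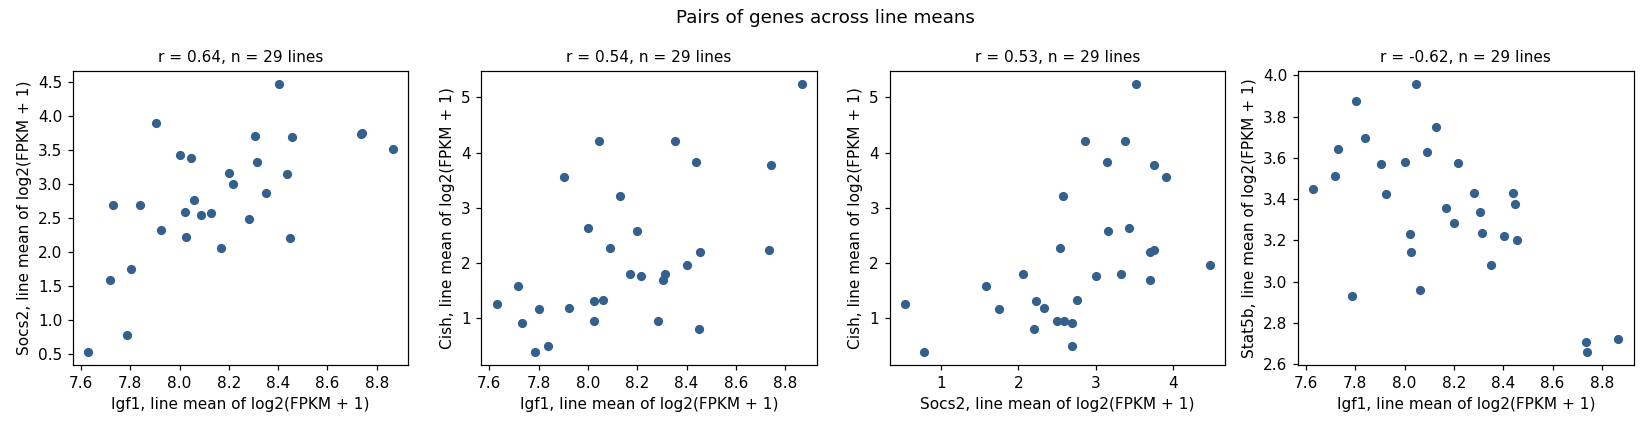
Line means of log2(FPKM + 1) of 2 genes against each other, 1 point for each of 29 lines, for pairs named in the text. Socs2 rises with Igf1 (r = 0.64) and Stat5b falls with it (r = -0.62).

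For each of the other 6 pairs at least 1 line left out moved the p past 0.05. Stat5b and Elovl3 had r = 0.44 (permutation p = 0.0153, rho 0.47 with permutation p = 0.0102), with 0.34 without IL-2126, where it no longer passed, and 0.51 without the 2 lines farthest from the median of Stat5b. Igf1 and Igfals had r = 0.41 (permutation p = 0.0251), with 0.34 without IL-1061 and 0.34 without IL-1513, where it no longer passed, and 0.59 without the 2 farthest lines. Igfals and Hsd3b5 had r = 0.39 (permutation p = 0.0338), between 0.33 and 0.37 in the runs without IL-1061, IL-2146, IL-3348, IL-3438 or IL-4032, where it no longer passed, and 0.47 without the 2 farthest lines. Socs2 and Bcl6, an inhibitor that growth hormone induces and a repressor that it lowers, had r = -0.39 (permutation p = 0.0365), and this was lost without IL-1141 (-0.30), IL-1452, IL-2156, IL-3438 or IL-4141 (-0.35 to -0.37), but not without the 2 farthest lines (-0.39). Hsd3b5 and Igfbp2 had r = 0.40 (permutation p = 0.0327) but 0.13 without the 2 farthest lines, and did not pass without IL-1061, IL-2156, IL-219 or IL-2680 (0.24 to 0.36). Over 6 alternative settings the r of Hsd3b5 and Igfbp2 was 0.38 to 0.72 (highest permutation p 0.0406). Among lines with 2 or more mice, Stat5b with Elovl3 (0.31), Igfals with Hsd3b5 (0.35), Socs2 with Bcl6 (-0.21) and Igf1 with Elovl3 (-0.20) did not pass. Igf1 and Elovl3 had r = -0.37 (permutation p = 0.0459) and missed the threshold in 15 of 29 runs that left out 1 line (as far as -0.24, without IL-2126), without the 2 farthest lines (-0.24) and without the Xist-positive library (-0.37, permutation p = 0.0511). None of these 6 pairs was called in the edgeR fits over all genes. Hsd3b5 and Elovl3, both enzymes of the male pattern, had r = 0.09 across lines (permutation p = 0.652).

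Within lines the order was different. Deviations from the line mean in 47 mice of 21 lines remove differences between lines as labelled. Mice labelled IL-1052 and IL-2750 resembled each other across labels, so their deviations may still hold such differences. Among the 45 pairs, 4 had a permutation p under 0.05. Of the pairs with all other genes, 12.8% passed 0.05 in an unadjusted t test of r, again another test than the permutations. Hsd3b5 and Elovl3, for which no correlation was detected across line means, had r = 0.78 within lines (permutation p = 0.00039, rho 0.65 with permutation p = 0.00096). Without the 2 farthest mice their r was 0.66. Each was called with the other as covariate in edgeR fits with line as a factor (adjusted p 0.000785 and 0.00196), Elovl3 rising by 0.96 on the log2 scale per log2 unit of Hsd3b5 and Hsd3b5 by 0.72 per unit of Elovl3. Without the Xist-positive library r was 0.75, with adjusted edgeR p of 0.00214 and 0.00542. Over 4 alternative settings, one of them without IL-1052 and IL-2750, r was 0.75 to 0.78 (highest permutation p 0.00306). The difference between the relations within and across lines was not tested. In IL-2156 the mouse of 38 g had both the highest Hsd3b5 and the highest Elovl3 of its line, and without that line the calls remained at adjusted p of 0.0275 and 0.0412.

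Cish and Bcl6 moved in opposite directions between line mates, with r = -0.51 (permutation p = 0.00819, rho -0.49 with permutation p = 0.0163), -0.53 without the 2 farthest mice and -0.50 without the Xist-positive library. In IL-1061 the mouse with 3.68 FPKM of Cish had 0.99 FPKM of Bcl6, and its line mate with 0.24 FPKM of Cish had 15.1 FPKM of Bcl6. Neither gene was called with the other as covariate (adjusted edgeR p 0.401 and 0.887). Across line means the pair had r = -0.27 (permutation p = 0.158). Igf1 and Igfals had r = 0.54 within lines (permutation p = 0.0191, rho 0.51) and Igfals and Socs2 r = 0.28 (permutation p = 0.0212), the first no longer passing without IL-1052 and IL-2750 (0.43) and the second without IL-785 replicate 1 (0.26). Igf1 and Socs2, the pair with the highest r across lines, had r = 0.00072 within lines (permutation p = 0.996). Without the Xist-positive library 7 pairs passed, the others being Ghr with Cish (r = 0.26), Hsd3b5 with Igfbp2 (0.39) and Socs2 with Hsd3b5 (0.24).

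**Figure D4:**
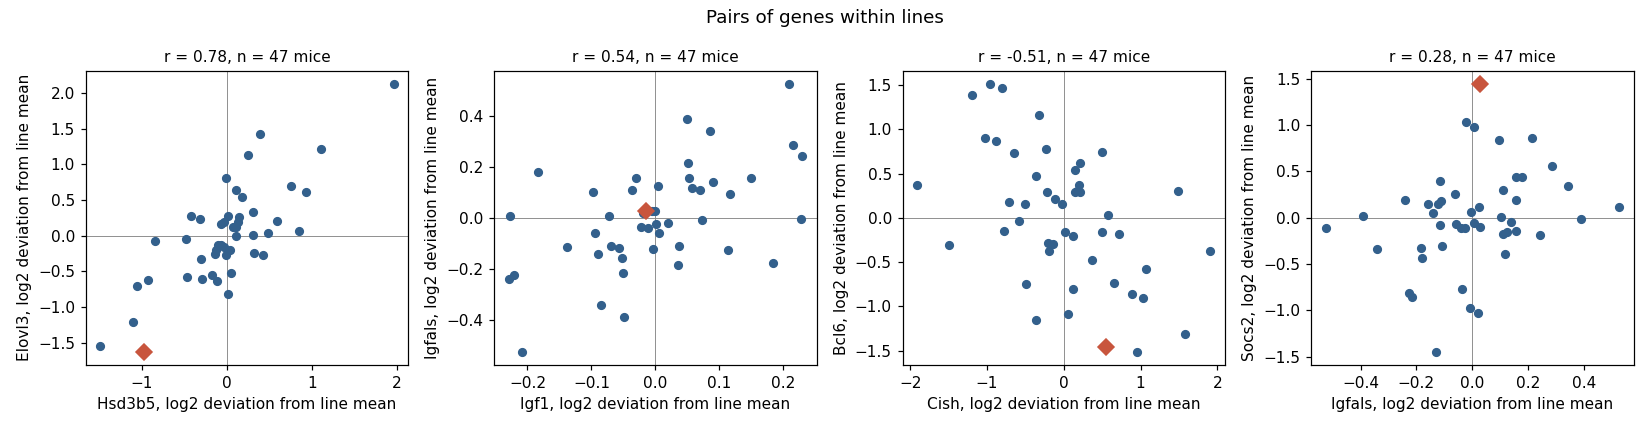
Deviations from the line mean of log2(FPKM + 1) of 2 genes against each other in 47 mice of the 21 lines with 2 or more mice, 1 point a mouse, with IL-785 replicate 3 as a red diamond. Elovl3 rises with Hsd3b5 (r = 0.78) and Bcl6 falls with Cish (r = -0.51).

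The promoters of Cish and Bcl6 are printed because they carry the densest matches to the palindrome bound by STAT5, TTCNNNGAA, among the genes with a promoter window. RefSeq windows of 300 bases (GRCm38.p6, 250 before to 50 after a start) were found for 8 of the 10 genes, 14 windows in all. Socs2 and Elovl3 had none. The motif, which is its own reverse complement, was in 5 windows of 3 genes, beside 8.30% of 32851 windows over all genes. Cish held 2 matches, and 0.457% of all windows held 2 or more. Igfals held 1 in each of 2 windows, and Bcl6 1 in its first and 3 in its second window, a number reached by 0.0335% of all windows. A match of letters is a description and not evidence of binding. The windows lie at chr9:107296409-107296708 (plus strand) for Cish and chr16:23981234-23981533 (minus strand) for Bcl6, with matches in capitals.

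Cish promoter: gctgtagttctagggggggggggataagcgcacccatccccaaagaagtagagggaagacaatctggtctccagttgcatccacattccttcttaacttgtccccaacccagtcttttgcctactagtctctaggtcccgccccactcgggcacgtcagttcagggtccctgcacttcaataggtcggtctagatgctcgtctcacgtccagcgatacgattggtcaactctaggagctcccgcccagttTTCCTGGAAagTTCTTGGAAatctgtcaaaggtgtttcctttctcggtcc
Bcl6 promoter: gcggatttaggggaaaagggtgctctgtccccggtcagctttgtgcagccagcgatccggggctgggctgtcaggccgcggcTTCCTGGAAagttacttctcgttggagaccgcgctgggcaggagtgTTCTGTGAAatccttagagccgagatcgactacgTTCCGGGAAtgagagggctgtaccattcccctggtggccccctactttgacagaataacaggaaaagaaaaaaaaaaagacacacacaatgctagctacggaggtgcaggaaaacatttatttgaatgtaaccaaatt

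Genes of the same pathway were read from lists, with each of the 10 genes as covariate in turn. The list genes named in these fits were chosen after their values were seen. Within lines, some male-biased genes rose and some female-biased genes fell with Hsd3b5, while most of both lists did not pass the test. Of 18 male-biased genes tested, 5 rose with Hsd3b5 (Cyp2d9, Cyp4a12a, Cyp7b1, Selenbp2 and Mup20), beside 0.445% of 15284 genes, and none fell. Of 23 female-biased genes, 9 fell, beside 0.386%, among them Cyp3a44 (slope -2.48 on the log2 scale, adjusted edgeR p 0.000123), Slc22a26 (-1.95, 0.00323), Cyp3a41a and A1bg. With Elovl3 as covariate 4 male-biased genes rose (0.537% of all genes) and 9 female-biased genes fell (0.412%). Cyp3a41a, Cyp3a41b and Cyp3a44 are near-identical copies whose reads could be divided among them.

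These counts leaned on a few mice. Cyp3a41a had a median of 0.62 FPKM, but 1549 FPKM in IL-2680 replicate 1, where 10 of the 23 female-biased genes reached 10 FPKM and Hsd3b5 was 19.4 FPKM, against 93.1 FPKM in its line mate. IL-785 replicate 3 had 334 FPKM of Cyp3a41a and 39.6 FPKM of Hsd3b5, where its line mates had 104 and 119 FPKM of Hsd3b5. Without the Xist-positive library 3 male-biased and 5 female-biased genes were called with Hsd3b5, beside 0.714% of genes in either direction. Without IL-2680 replicate 1 as well, 2 male-biased (Cyp4a12a and Selenbp2) and 2 female-biased genes (Cyp3a44 and Slc22a26) remained, beside 0.472%. With Elovl3 the counts became 4 and 4, then 1 and 1. Without IL-1052 and IL-2750, 3 male-biased genes rose and 4 female-biased genes fell with Hsd3b5, beside 0.295% of genes in either direction.

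Across lines, Igf1 and Stat5b were tied to many more genes than the others. Igf1 as covariate called 1769 of 15063 genes (11.7%) and Stat5b 2163 of 14817 (14.6%), whereas the other 8 called from 0.00675% (Bcl6) to 0.863% (Igfbp2). Single lines bore much of this, since without IL-2126 the numbers fell to 552 and 1151 genes, and without IL-4457 to 943 and 1305. Of 15 genes of receptor signalling and its brakes, 3 were called with Igf1 and 5 with Stat5b. With Igf1, Socs1 and Ptpn2, inhibitors of cytokine signalling, rose and Stat5a fell (slope -1.33 on the log2 scale, adjusted edgeR p 0.00210). With Stat5b, Stat5a (1.27, 0.000617) and Irs1, an adaptor of insulin and IGF1 signalling, rose (0.79, 0.0479). Socs1 (-3.11, 0.00226), Ptpn2 (-0.57, 0.0125) and Ptpn1 (-0.53, 0.0373) fell with Stat5b. Stat5a lies beside Stat5b in the genome and encodes a close paralog of STAT5B. Without IL-2126 the 2 genes called in each fit were Stat5a and Socs1. Markers of bile duct cells moved too, with Krt19 and Epcam rising with Igf1 (1.47 and 1.94, adjusted edgeR p 0.0461 and 0.0105) and Krt7 and Epcam falling with Stat5b (-1.04 and -1.92, adjusted edgeR p 0.0203 and 0.00486), of 4 markers tested. The summed level of the 4 markers ran from 0.50 to 10.2 FPKM over mice, none was at 0 in all mice, and without IL-2126 1 marker was called with Igf1 and 2 with Stat5b. Their part in the relations to Igf1 and Stat5b was not tested.

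Female-biased genes moved up with Igf1 in 7 of 22 genes tested, among them Cyp2b9, Cyp2b13, Cyp2a4 and Cux2, beside 6.65% of all genes, and none moved down. Without IL-2126, which had 105 FPKM of Cyp2b13 against a median of 0.02 FPKM over all mice, 1 of the 7 was called, and none of the 4 named. With every other line left out in turn the number was 6 to 9. The 4 female-biased genes that fell with Elovl3 across lines, Cyp2b13 and Acot3 among them, beside 0.119% of genes, likewise became 1 without IL-2126. Whether other features of this single mouse bear on these counts was not tested.

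Clock genes moved with Stat5b. Of 12 tested, Arntl, Clock and Npas2, the activating arm of the circadian clock, rose with Stat5b (slopes 3.25, 1.10 and 4.43 on the log2 scale, adjusted edgeR p 0.000627, 0.00139 and 0.00112), beside 5.95% of genes. Per1, Per2, Per3, Cry2 and Tef, of the repressing arm and its output, fell (adjusted p 0.0204 to 0.0405), beside 8.65%. With Igf1 as covariate the activating genes went the other way, and Arntl, Clock and Npas2 fell, beside 5.09% of genes. With any line left out, 3 or 4 clock genes still rose with Stat5b, and the number that fell went from 5 to 0 without IL-2126 and to 2 without IL-1141 or IL-72. The number of clock genes that fell with Igf1 went from 3 to 1 without IL-2126, IL-4141, IL-4457, IL-2011 or IL-72. The clock genes differed strongly among lines, with intraclass correlations of 0.843 for Arntl, 0.839 for Dbp and 0.820 for Per1. The hour of dissection was not in the labels, and the part of the clock in the relation of Stat5b to Igf1 was not tested.

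Igfbp2 as covariate called 4 of 5 macrophage markers lower across lines (Clec4f, Emr1, Cd68 and Cd5l, slopes from -1.04 to -0.69 on the log2 scale), beside 0.726% of genes. The summed level of the 5 markers ran from 9.73 to 193 FPKM over mice, with none at 0 in all mice. Without IL-2126, the line highest in Igfbp2, none of the 4 was called, and without the Xist-positive library 3 were. The part of macrophage content in the level of Igfbp2 was not tested. With Cish as covariate within lines, 2 of 15 regulators of liver expression rose and none fell, beside 0.0654% of genes that rose. These 2 were the pioneer factors Foxa1 (slope 0.27 on the log2 scale, adjusted edgeR p 0.00753) and Foxa2 (0.33, 0.000121). Both were called also without the Xist-positive library.

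Body weight, a trait on which growth hormone acts through IGF1, was set against the 10 genes. Across lines none of the 10 was called with the mean weight of the line in edgeR (lowest adjusted p 0.430), beside 0.0797% of 15064 genes, and none by DESeq2 (lowest adjusted p 0.330) or limma (0.316). At an unadjusted p under 0.05 there were 2, beside 10.6% of genes. Ghr had a slope of 0.0241 ± 0.0109 per g on the log2 scale (SE, adjusted p = 0.430 in edgeR), and Stat5b one of -0.0291 ± 0.0135 per g (adjusted p = 0.442 in edgeR). Over line means Stat5b had r = -0.38 with weight (permutation p = 0.0449, rho -0.38 with permutation p = 0.0420) and -0.25 without the 2 lines farthest from the median weight. That r missed the threshold in 13 of 29 runs that left out 1 line, as far as -0.24 without IL-4457. Igf1, the growth factor itself, had r = 0.19 (permutation p = 0.325), and the other 8 lay between -0.24 (Igfbp2) and 0.19 (Ghr).

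Within lines, none of the 10 was called with body weight either in edgeR (lowest adjusted p 0.342), beside 0.0785% of genes, or by DESeq2 (0.157) or limma (0.360). At an unadjusted p under 0.05 there were 3, beside 8.27% of genes. The slopes on the log2 scale were 0.202 ± 0.0678 per g for Elovl3 (adjusted p = 0.342 in edgeR), 0.165 ± 0.0610 for Hsd3b5 (adjusted p = 0.421 in edgeR) and 0.0386 ± 0.0142 for Ghr (adjusted p = 0.421 in edgeR). For the enzymes this rested on the 38 g mouse of IL-2156, and without it the slope of Hsd3b5 was -0.023. Deviations from the line mean had r = 0.47 with weight for Ghr (permutation p = 0.0550, rho 0.43 with permutation p = 0.0287). For Elovl3 r was 0.47 (permutation p = 0.155, rho 0.13) and for Hsd3b5 0.42 (permutation p = 0.295, rho 0.17). Igfbp2 had r = -0.28 (permutation p = 0.0907, rho -0.39 with permutation p = 0.0363). These p values are not adjusted over the 10 genes. All 10 genes were also set against age over line means, and 1 had a permutation p under 0.05, not adjusted over the 10. It was Igf1, with r = 0.43 (permutation p = 0.0202, rho 0.42), and 0.33 without the 2 lines farthest from the median age. Igfals came next, with r = 0.36 (permutation p = 0.0529).

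**Figure D5:**
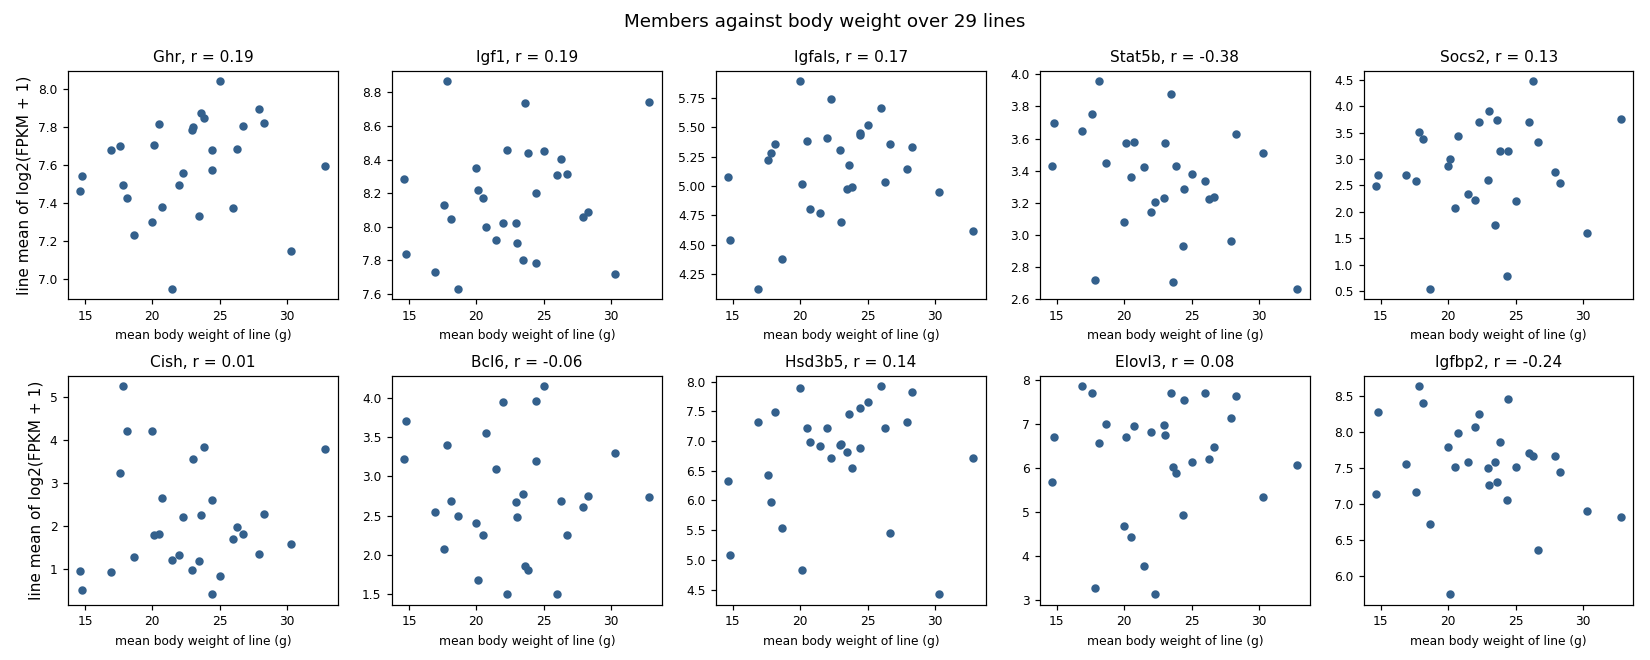
Line mean of log2(FPKM + 1) of each of the 10 genes against the mean body weight of the line in g, 1 point for each of 29 lines, with Pearson's r in each title. Stat5b has the r farthest from 0 (-0.38), and the other 9 genes have r between -0.24 and 0.19.

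Other genes of the pathway differed among lines about as often as genes in general. All 15 genes of receptor signalling and its brakes differed among lines in edgeR, as did 7 of 10 genes of the IGF system tested, 17 of 18 male-biased, 23 of 23 female-biased, 11 of 15 regulators of liver expression, 12 of 12 clock and 10 of 10 feeding genes, beside the 88.5% of all genes. None of these lists had a gene called with body weight across or within lines in edgeR. The smallest p across lines among them belonged to Ptpn1, a phosphatase that acts on JAK2 (slope 0.0443 ± 0.0116 per g on the log2 scale, adjusted edgeR p 0.140). Within lines its slope had the opposite sign, -0.0724 ± 0.0156 per g (adjusted edgeR p 0.0793). Among the female-biased genes Cyp2b13 (-0.476 ± 0.145, 0.197), Sult3a1 (-0.514 ± 0.165, 0.215), Cux2 and Tox had the smallest, all with negative slopes. Within lines the slopes of Cyp2b13 (0.258 ± 0.180) and Sult3a1 (0.586 ± 0.474) were positive and not called. In the IGF system, Igfbp3, the main serum carrier of IGF1, was the most tied to line (intraclass correlation 0.839, from 0.65 to 30.8 FPKM), and Igfbp1, which fasting induces, ranged from 3.27 to 812 FPKM, both highest in IL-1513 replicate 1. Among male-biased genes Cyp2u1 (0.825), C4a and C6 were the most tied to line, and among female-biased genes Cyp2a4 (0.873, from 0 to 723 FPKM), Cyp17a1 and Sult2a1.

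The genes most like each member over 29 line means, a description that carries no test, were mostly unrelated to the lists. Stat5b was closest to Khnyn (r = 0.88) and Rab11fip4 (r = 0.88), and Cish to Foxq1 (r = 0.88), Phlda1 (r = 0.82) and Myc (r = 0.81). Igf1 was closest to Efhd2 (r = 0.83), Apoa5 (r = 0.82) and Alkbh1 (r = 0.79), Socs2 to Slc25a30 (r = 0.76), Elovl3 to Pitx3 (r = 0.75), which overlaps it in the RefSeq annotation, and Igfals to Aes (r = 0.76). Ghr was closest to Akr1c6 (r = 0.72), Pgrmc1 (r = 0.72) and Otc (r = 0.70), Igfbp2 to AI462493 (r = 0.70) and Hsd3b5 to Serpina9 (r = 0.67). Bcl6 had the lowest such values, 0.61 for Cabin1 and 0.56 for Mup18, one of the major urinary proteins.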

How the data were processed

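Livers of 55 untreated male mice of 29 Collaborative Cross lines were profiled by polyA RNA sequencing with a stranded kit. Per the study's methods, the authors aligned paired 50-base reads with Bowtie 2 and estimated expression with RSEM 1.2.18 on mm9 with Ensembl release 67. The deposited tables hold, per gene and isoform, expected counts, TPM and FPKM, and for isoforms the percent of the gene's expression. RSEM divides reads shared by paralogs and isoforms among them, so estimates of near-identical genes and of low isoforms are uncertain. Positions were read from the Ensembl release 65 annotation of the same build, NCBI build 37. The line was the group and separate mice of a line the replicates. Replicate numbers followed accession order.

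The 10 genes, the lists and the tests were chosen with earlier results of these data known, and the male-biased, female-biased and other lists were written from general knowledge. Expected counts were rounded and fitted with edgeR 4.0.16 (TMM, filterByExpr, quasi-likelihood F test, Benjamini-Hochberg over all genes tested, threshold 0.05) for line, for body weight across lines (counts summed per line), for body weight within lines (line as factor) and with each gene's log2(FPKM + 1) as covariate. The SE of a slope was its size divided by the root of F. DESeq2 1.42.0 and limma 3.58.1 were alternatives. Fits that left out 1 mouse, for the tests of line and of weight within lines, kept the genes and trended dispersion of the complete fit. Fits that left out 1 line, for weight across lines, repeated the filter and the dispersion estimate. Correlations used log2(FPKM + 1), pseudocount 1, with 100000 two-sided permutations of lines, or of mice within lines. The shares of pairs with all other genes came from t tests of r. Intraclass correlations and isoform shares used van der Waerden scores of rounded values, as in the study's methods, for features with a maximum FPKM of at least 2. The spread within a line also holds age, weight and other conditions of the mice. Scripts were tested on simulated data. The 10 FPKM mark for the female-biased list and the fits without IL-785 replicate 3, IL-2680 replicate 1, IL-2126 or IL-2156, or without each line for Igf1 and Stat5b as covariates, were chosen after seeing the data. Text named the 10 genes, their 3 most similar genes over line means, the list genes with the smallest p for weight or the highest intraclass correlation, and isoforms with a mean share of 10% in a line. Other list genes were chosen after their values were seen. Promoter sequences were RefSeq windows of GRCm38.p6, and motifs were counted on both strands. Python 3.11.15 and R 4.3.3 were used.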

Additional observations from a re-analysis of the deposited data

Results flagged for a closer look

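Xist reached 39.49 FPKM in IL-785 replicate 3, a library labelled male, where the other 54 mice had at most 0.12 FPKM. It was flagged because Xist was not one of the 10 genes and stood above its level in all other libraries. Xist was tested in the fits over all genes, in a list of 5 with Y-linked genes. Of that list, 1 gene was called lower with body weight across lines in edgeR. The same library had Y-linked transcripts inside the range of the other mice, 334 FPKM of Cyp3a41a (0.67 and 11.1 FPKM in its line mates) and the highest Cux2 of the 55 mice, 2.93 FPKM. Of the 10 genes, Socs2 was higher than in its line mates (14.3 against 1.07 and 4.65 FPKM), and Bcl6 (2.41 against 10.5 and 19.99 FPKM), Hsd3b5 (39.6 against 104 and 119 FPKM) and Elovl3 (15.6 against 136 and 57.7 FPKM) were lower. Its part in the results is shown by the values without it.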

How the results depend on the processing

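The count of genes that differed among lines stayed at 9 under every alternative run, and the counts called with body weight stayed at 0. The count of pairs correlated across line means was 10, fell to 6 among lines with 2 or more mice and ranged from 6 (without IL-1061) to 12 when 1 line was left out. The count within lines was 4, rose to 7 without the Xist-positive library and ranged from 3 to 7 when 1 mouse was left out. The count correlated with body weight, 1 (Stat5b), fell to 0 without IL-1052 and IL-2750 and ranged from 0 to 1 over lines left out. Of 20 isoforms tested, 13 were called, or 12 without IL-4052 replicate 1, IL-4457 replicate 2 or either mouse of IL-1061, and 12 with percentages in place of rank scores. The median intraclass correlation was 0.518 to 0.588 with 1 mouse left out.

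Slopes on body weight that no test called changed sign under some settings, and the cause was not tested. In log2 units per g across lines, Cish (-0.042) became 0.00251 with depth as covariate, 0.0326 among lines with 2 or more mice, 0.00233 with limma on line means and 0.0988 with limma-voom, and ranged from -0.137 to 0.0167 over lines left out. Bcl6 (-0.0085) became 0.00878 with age as covariate, 0.0034 among lines with 2 or more mice and 0.00237 without IL-785, and ranged from -0.0196 to 0.00237. Elovl3 (0.017) became -0.00606 with depth as covariate. Within lines, Socs2 (-0.021) became 0.0158 without the Xist-positive library and ranged from -0.0487 to 0.0158 over mice left out. The same ranges were -0.0108 to 0.0160 for Igf1, -0.00891 to 0.0105 for Stat5b, -0.223 to 0.0190 for Bcl6 and -0.0225 to 0.190 for Hsd3b5. The correlation with weight over line means became -0.0583 for Cish without IL-785 and 0.0964 for Bcl6 among lines with 2 or more mice, and over lines left out ranged from -0.122 to 0.126 for Cish, -0.115 to 0.0328 for Bcl6 and -0.00632 to 0.15 for Elovl3.

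No paired analysis was possible because replicate numbers followed accession order and the labels tie no mice of different lines to each other. The 8 lines of 1 mouse have no error of their own, and Cish, Socs2 and Bcl6 had the lowest counts, which limits their isoform shares most.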
